A study of Mus musculus with 9 samples.

Results

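Leptin and insulin signalling in the hypothalamus was followed through 9 genes, of 14351 genes in the table of expression values: the receptors Lepr, Insr and Igf1r, the receptor adaptors Irs1 and Irs2, the transcription factors Stat3 and Foxo1, and the inhibitors Socs3 and Ptpn1. All 9 had a value in every library. RNA was sequenced from the hypothalamus of male mice on normal chow, either with a whole body knockout of Clic1, a chloride intracellular channel protein (KO, n = 5, replicates 2, 4, 6, 8 and 10), or wild-type littermates (WT, n = 4, replicates 1, 3, 9 and 11). The strain field of the labels reads C57b/6J and the study's methods name a CD-1 background, and the age of these mice was not given in the sources used here. The knockout is not limited to the hypothalamus, and nothing in the sources says outright that each library came from a separate mouse, so p-values measure the spread between these libraries.

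One library carries conflicting labels. KO replicate 10 is called K10 in its description, which put it in the KO group here, whereas its title and its treatment field name it WT. Differences between KO and WT are therefore given with this library and without it. Clic1 itself was 1.93, 1.32, 0.733, 1.25 and 1.43 CPM (read counts scaled to library size by the authors) in KO replicates 2, 4, 6, 8 and 10, and 5.52, 4.66, 5.3 and 3.58 CPM in WT replicates 1, 3, 9 and 11. The groups did not overlap for Clic1, the level in replicate 10 lay among those of the other KO libraries, and the difference was -1.80 on the log2 scale (SE 0.27, limma adjusted p = 0.0153, and -1.84 with adjusted p = 0.00494 without replicate 10). The effective depth estimated from the steps between low values was 5448000 to 20226000 reads in KO and 7250000 to 11046000 reads in WT, and replicate 10 was the deepest. One field of the labels names adipose tissue, and none of 7 adipose markers, Adipoq among them, had a value, while 6 neuronal markers summed to 2496 to 2986 CPM. The sums of 11 hypothalamic markers did not overlap between groups, at 638 to 824 CPM for KO (638 to 781 without replicate 10) against 581 to 624 CPM for WT. Of all single genes, 3.41% had no overlap. The markers include the peptide genes Avp, Oxt, Hcrt, Pmch, Pomc, Agrp and Trh, and the study reported higher Avp in KO. Their sum does not tell a change in single genes from a change in tissue composition. The part of tissue composition in the members' values was not tested.

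Leptin, released by fat, binds the receptor encoded by Lepr, and the receptor's long form activates the kinase JAK2, which phosphorylates STAT3. STAT3 then enters the nucleus and induces Socs3, whose product binds back to the receptor, and the phosphatase PTP1B, encoded by Ptpn1, removes phosphate from JAK2 and from the insulin receptor. Insulin and the insulin-like growth factors act through Insr and Igf1r, the adaptors IRS1 and IRS2, PI3-kinase and AKT, which keeps FOXO1 out of the nucleus, and in hypothalamic neurons of the arcuate nucleus STAT3 and FOXO1 act in opposite directions on the feeding neuropeptide genes Pomc and Agrp.

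RefSeq promoter windows, from 250 bases before to 50 after an annotated start in the build GRCm38.p6, were found for 8 of the 9 genes. The window of Socs3 is shown because it was the 1 member with a STAT motif, TTCNNNGAA, which reads the same on both strands, here in capitals 154 bases before the start. Such a motif was present in 8.3% of 32851 mouse windows of this length. The window lies at chr11:117969317-117969616 on the minus strand, inside the span that GENCODE gives the gene, has 73.3% GC and reads, 5′ to 3′:
Socs3: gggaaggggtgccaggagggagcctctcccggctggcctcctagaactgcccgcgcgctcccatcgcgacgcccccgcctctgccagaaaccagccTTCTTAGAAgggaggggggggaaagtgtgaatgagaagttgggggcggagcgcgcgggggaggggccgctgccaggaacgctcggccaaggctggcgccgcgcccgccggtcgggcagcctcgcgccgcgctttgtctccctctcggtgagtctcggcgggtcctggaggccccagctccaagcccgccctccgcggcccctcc

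The windows of Igf1r, Irs1, Irs2 and Foxo1 are shown as well, since these 4 genes stood apart together in 1 library, described further on. They lie at chr7:67952007-67952306 on the plus strand, chr1:82291390-82291689 on the minus strand, chr8:11008880-11009179 on the minus strand and chr3:52268087-52268386 on the plus strand. None of the 8 genes' windows held the FOXO motif TGTTTAC or its other strand GTAAACA, found in 3.65% of all windows, and none of these 4 held the STAT motif, so they carry no capitals:
Igf1r: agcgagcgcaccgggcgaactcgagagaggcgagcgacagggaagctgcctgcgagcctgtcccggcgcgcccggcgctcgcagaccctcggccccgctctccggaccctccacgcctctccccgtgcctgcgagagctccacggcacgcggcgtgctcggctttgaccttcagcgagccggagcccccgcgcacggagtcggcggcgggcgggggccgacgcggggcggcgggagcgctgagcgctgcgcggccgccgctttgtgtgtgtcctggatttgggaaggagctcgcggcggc
Irs1: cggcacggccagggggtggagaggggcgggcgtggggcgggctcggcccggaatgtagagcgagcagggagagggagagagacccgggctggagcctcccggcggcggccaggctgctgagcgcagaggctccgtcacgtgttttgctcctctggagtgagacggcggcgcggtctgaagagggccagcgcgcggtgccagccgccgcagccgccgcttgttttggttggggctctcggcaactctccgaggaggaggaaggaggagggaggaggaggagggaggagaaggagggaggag
Irs2: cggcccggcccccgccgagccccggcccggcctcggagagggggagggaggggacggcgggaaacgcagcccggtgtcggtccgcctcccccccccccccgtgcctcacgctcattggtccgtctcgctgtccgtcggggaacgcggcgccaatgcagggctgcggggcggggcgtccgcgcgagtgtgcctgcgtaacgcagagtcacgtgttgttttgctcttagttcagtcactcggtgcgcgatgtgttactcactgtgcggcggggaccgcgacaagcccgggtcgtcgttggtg
Foxo1: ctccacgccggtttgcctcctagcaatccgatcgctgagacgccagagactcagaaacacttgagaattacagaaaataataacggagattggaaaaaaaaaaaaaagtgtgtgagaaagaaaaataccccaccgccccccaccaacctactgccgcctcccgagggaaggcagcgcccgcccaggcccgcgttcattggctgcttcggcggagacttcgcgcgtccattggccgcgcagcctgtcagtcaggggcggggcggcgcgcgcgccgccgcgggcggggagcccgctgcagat

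The 4 windows had 76% GC for Igf1r, 71.3% for Irs1, 72% for Irs2 and 61.3% for Foxo1, beside a median of 52.7% over all windows, and held 48, 28, 41 and 31 CpG dinucleotides beside a median of 7. The other windows, of Ptpn1 with 74%, Stat3 with 60.7% and the 2 starts of Lepr with 61.3% and 54.3%, were also above that GC median. A GC share above the median was thus common to all these windows.

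The comparison of KO with WT asks whether loss of Clic1 goes with a different abundance of these signalling transcripts. It did not separate the groups for any of them. None of the 9 members passed an adjusted p of 0.05 in limma, beside 0.286% of all 14351 genes (41 genes), and none had an unadjusted p below 0.05, beside 6.5% of all genes. KO and WT values overlapped for all 9, whereas 3.41% of all genes had no overlap. On the log2(CPM + 0.1) scale 3 members had a higher and 6 a lower mean in KO, beside 7229 and 7122 of all genes. The members' median difference was -0.09, beside 0.00089 over all genes. Without replicate 10 again none passed (0.606% of all genes did, and 10.5% had an unadjusted p below 0.05), and the median of the members was -0.03. With replicate 10 grouped as WT none passed either, beside 0.0348% of all genes. Gene positions are given in GRCm38, from the GENCODE annotation. In bulk tissue fewer cells of a type and less RNA per cell cannot be told apart, for these genes as for any other.

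Lepr, at chr4:101717404-101815352 on the plus strand, encodes the leptin receptor. Its level was 14.4, 12.8, 9.34, 17.2 and 11.9 CPM in KO replicates 2, 4, 6, 8 and 10, and 13.7, 11.6, 12 and 11.6 CPM in WT replicates 1, 3, 9 and 11. The highest and the lowest of all 9 libraries were both KO, so the WT values lay inside the KO range. KO averaged 13.1 ± 2.92 CPM (SD, n = 5) against 12.2 ± 0.985 CPM (SD, n = 4) for WT, a difference of 0.08 on the log2 scale with a 95% confidence interval of 0.831-fold to 1.34-fold (limma adjusted p = 0.943). The exact two-sided permutation test gave p = 0.651, and 5 against 4 libraries allow no p below 0.0159. Without replicate 10 the difference was 0.11, with an interval of 0.853-fold to 1.36-fold (limma adjusted p = 0.874). The KO libraries without replicate 10 varied by 24.4% of their mean and the WT libraries by 8.07%, and the interval for Lepr was the second widest of the 9. These counts do not separate the long signalling form of the receptor from its short forms.

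Insr, at chr8:3122061-3279617 on the minus strand, encodes the insulin receptor. It was measured at 135, 134, 144, 146 and 122 CPM in the 5 KO libraries, in the same order as before, and at 132, 140, 124 and 137 CPM in the 4 WT libraries. The 2 highest values were KO replicates 8 and 6 and the lowest was KO replicate 10. KO minus WT on the log2 scale was 0.03 (95% confidence interval 0.92-fold to 1.14-fold, limma adjusted p = 0.947, exact permutation p = 0.571), and 0.07 without replicate 10 (0.972-fold to 1.14-fold, limma adjusted p = 0.696).

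Igf1r, at chr7:67952827-68233668 on the plus strand, encodes the receptor for the insulin-like growth factors. KO values were 171, 176, 168, 170 and 124.5 CPM, and WT values 182, 174, 161.5 and 181 CPM. Replicate 10 was the lowest of all 9 libraries, and the other 4 KO libraries lay within the WT range, at 171 ± 3.24 CPM (SD, n = 4) beside 175 ± 9.51 CPM in WT. The difference on the log2 scale was -0.12 with replicate 10 (95% confidence interval 0.794-fold to 1.07-fold, limma adjusted p = 0.862, exact permutation p = 0.317) and -0.03 without it (0.913-fold to 1.05-fold, limma adjusted p = 0.901). The SD of the 4 other KO libraries was 1.89% of their mean, the smallest of any member.

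The adaptor Irs1, at chr1:82233101-82291416 on the minus strand, was measured at 75.6, 67.2, 76.4, 71.5 and 47.1 CPM in KO and 70.5, 72.1, 65.5 and 74.9 CPM in WT. KO held both the 2 highest values and, in replicate 10, the lowest. The log2 difference was -0.09 (95% confidence interval 0.776-fold to 1.14-fold, limma adjusted p = 0.918, exact permutation p = 0.841), and without replicate 10 its sign turned, at 0.04 (0.937-fold to 1.13-fold, limma adjusted p = 0.891). Of the 9095 stretches of 50 bases in the annotated Irs1 transcript, 2773 also occur, on the opposite strand, in the overlapping gene Gm9747, which had no value here. Strand use in counting was not given in the sources used here, so reads from that stretch could belong to either gene.

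Irs2, the adaptor through which insulin and leptin are both described as reaching hypothalamic PI3-kinase, lies at chr8:10984681-11008458 on the minus strand. Its values were 166, 159, 154, 152 and 108 CPM in KO and 162, 154.5, 150 and 166 CPM in WT. Apart from replicate 10, the groups covered almost the same range, 152 to 166 CPM for KO against 150 to 166 CPM for WT. KO minus WT on the log2 scale was -0.11 (95% confidence interval 0.782-fold to 1.1-fold, limma adjusted p = 0.880, exact permutation p = 0.524) with replicate 10 and -0.0021 (0.928-fold to 1.07-fold, limma adjusted p = 0.993) without it. The estimate without that library was the nearest to 0 among the members.

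Stat3, at chr11:100885098-100939540 on the minus strand, encodes the transcription factor of the leptin receptor. It was measured at 92.2, 101, 84.4, 94 and 107 CPM in KO and 107, 89.6, 99.5 and 83.3 CPM in WT. The groups overlapped over nearly their whole ranges, and replicate 10 was the highest KO library rather than the lowest. The difference on the log2 scale was 0.01 (95% confidence interval 0.882-fold to 1.16-fold, limma adjusted p = 0.985, exact permutation p = 0.857), and -0.03 without replicate 10 (0.878-fold to 1.1-fold, limma adjusted p = 0.946).

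Foxo1, at chr3:52268336-52353221 on the plus strand, encodes the forkhead factor that insulin signalling holds in the cytoplasm. KO values were 48.2, 51.4, 48.5, 51.45 and 32.6 CPM and WT values 53.5, 50.2, 52 and 48.6 CPM. The 4 other KO libraries lay at 49.9 ± 1.78 CPM (SD, n = 4) and WT at 51.1 ± 2.14 CPM (SD, n = 4), and replicate 10 was the lowest of all 9 libraries. The log2 difference was -0.16 (95% confidence interval 0.744-fold to 1.08-fold, limma adjusted p = 0.862, exact permutation p = 0.238), and -0.03 without replicate 10 (0.893-fold to 1.07-fold, limma adjusted p = 0.903). Gm20402, antisense to Foxo1, shares 577 of its 8616 stretches of 50 bases and had no value here.

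Socs3, at chr11:117966079-117970047 on the minus strand, encodes the feedback inhibitor of the leptin receptor and of insulin receptor signalling. It was the least abundant member, at 3.22, 4.48, 3.48, 3.91 and 4.1 CPM in KO and 4.88, 3.21, 5.6 and 3.72 CPM in WT, which is an estimated 19 to 83 reads a library. The 2 highest values were WT, and the lowest was WT as well, so KO lay inside the WT range. KO minus WT on the log2 scale was -0.15 (95% confidence interval 0.669-fold to 1.21-fold, limma adjusted p = 0.903, exact permutation p = 0.444), and -0.18 without replicate 10 (0.643-fold to 1.21-fold, limma adjusted p = 0.838). This was the widest interval of the 9; leaving out WT replicate 3 or 9 moved the difference to -0.29 or -0.0243. The WT libraries varied by 24.9% of their mean.

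Ptpn1, at chr2:167932057-167979385 on the plus strand, encodes PTP1B, the phosphatase that acts on JAK2 and the insulin receptor. KO values were 33.5, 32.9, 32.4, 27.5 and 38.8 CPM and WT values 36.3, 31.5, 34.5 and 34.3 CPM. KO held both the lowest value, in replicate 8, and the highest, in replicate 10. The difference on the log2 scale was -0.05 (95% confidence interval 0.83-fold to 1.12-fold, limma adjusted p = 0.938, exact permutation p = 0.619), and -0.11 without replicate 10 (0.819-fold to 1.04-fold, limma adjusted p = 0.68, exact permutation p = 0.2).

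**Figure D1:**
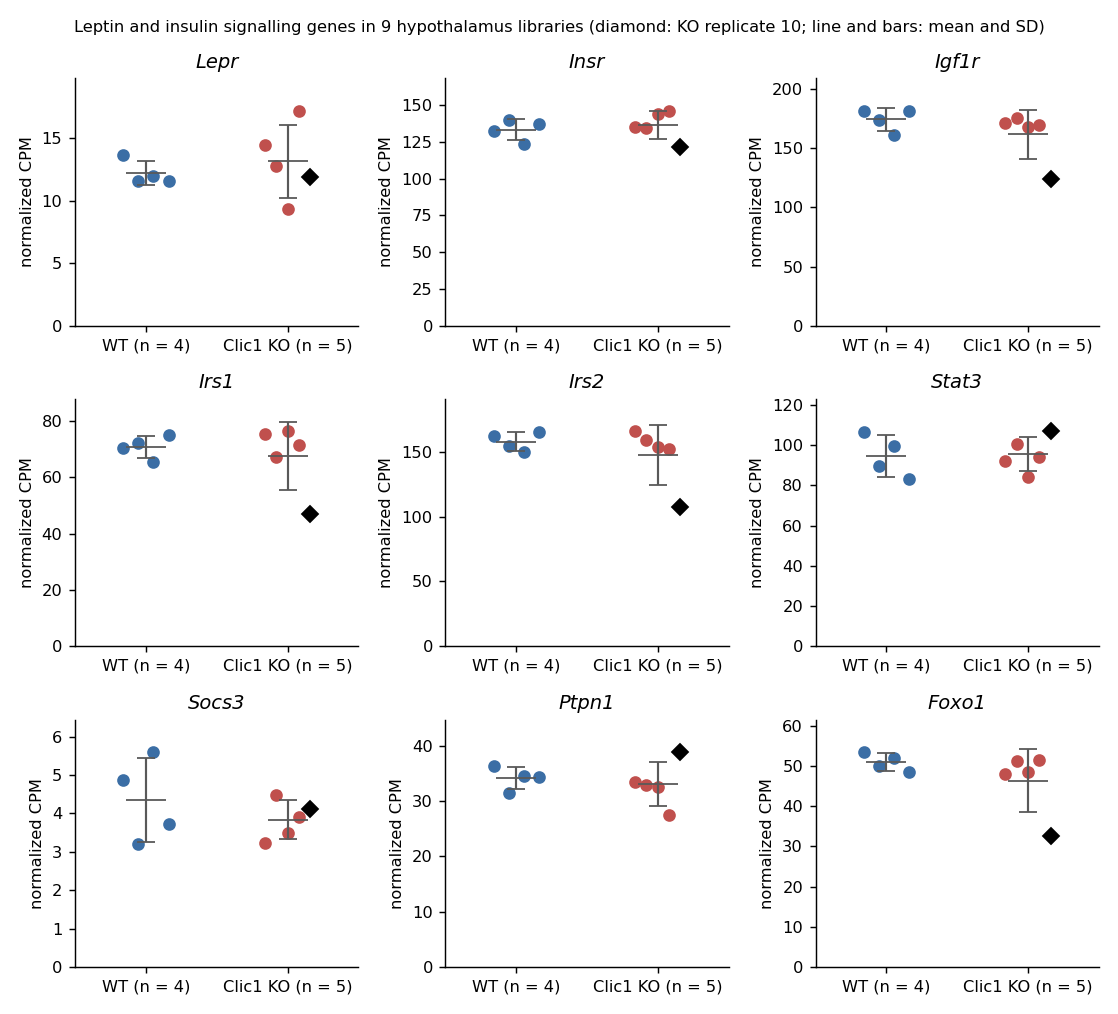
Normalized CPM of each of the 9 genes (y axes, from 0) in the 4 WT and 5 Clic1 KO libraries, one point a library, with the mean and SD as lines. KO and WT points overlap for every gene, and KO replicate 10 (black diamond) is the lowest of all 9 libraries for Insr, Igf1r, Irs1, Irs2 and Foxo1 and the highest for Stat3 and Ptpn1.

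**Figure D2:**
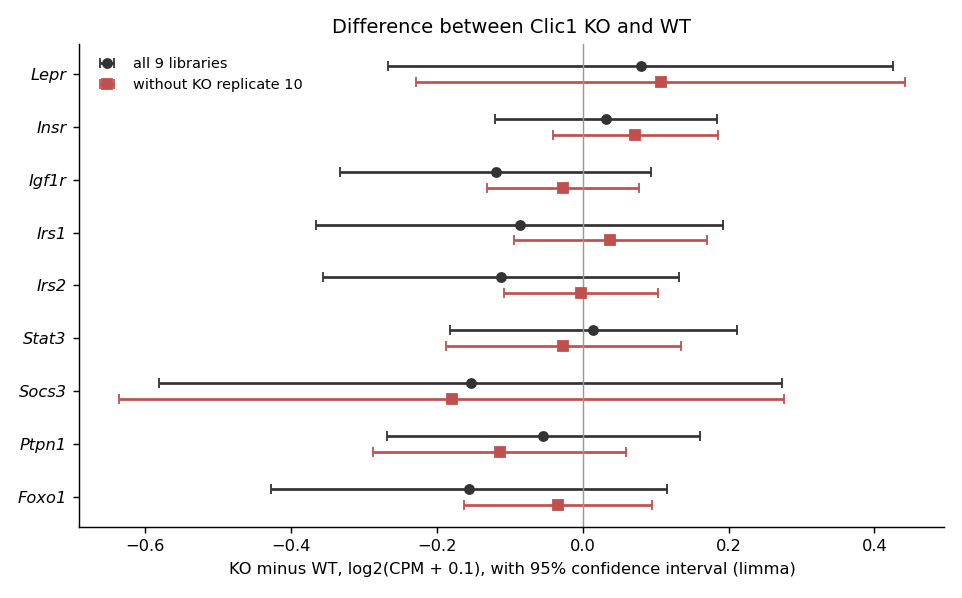
Difference between KO and WT on the log2(CPM + 0.1) scale (x axis) with its 95% confidence interval from limma, for each gene (y axis) with all 9 libraries and without KO replicate 10. All intervals include 0. Those of every gene but Socs3 are narrower without replicate 10, most of all those of Igf1r, Irs1, Irs2 and Foxo1. The intervals of Lepr and Socs3 are wide in both fits.

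Replicate 10 differed from the other KO libraries in 4 insulin pathway genes at once. On the log2 scale it lay -0.46 from their mean for Igf1r, -0.62 for Irs1, -0.55 for Irs2 and -0.61 for Foxo1. The largest deviation of any other library from the rest of its group was 0.148 for Igf1r, 0.147 for Irs1, 0.101 for Irs2 and 0.0932 for Foxo1. Replicate 10 was also further out than any other library for Insr, at -0.20 beside at most 0.141 elsewhere in either direction, and for Ptpn1, at 0.30 beside at most 0.259. Its deviations of -0.14 for Lepr, 0.21 for Stat3 and 0.13 for Socs3 lay within those of other libraries, which reached 0.648, 0.239 and 0.526.

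Deviations of this size were common in replicate 10. A larger one, in either direction, was found in 29.7% of all genes for Igf1r, 17.2% for Irs1, 22.1% for Irs2 and 17.9% for Foxo1. They also went with transcript length. Among genes that averaged 20 CPM or more, the median deviation of replicate 10 was 0.27 for transcripts of up to 2000 nucleotides (929 genes), 0.07 from there to 4000, -0.04 to 6000, -0.11 to 8000 and -0.15 to 12000 nucleotides (645 genes). Spearman's rho of deviation with length across 8395 genes was -0.27 in replicate 10 and -0.11, -0.02, 0.01 and 0.11 in KO replicates 2, 4, 6 and 8, where genes are not independent replicates. The longest transcripts are 11409 nucleotides for Igf1r, 9144 for Irs1, 6323 for Irs2 and 8665 for Foxo1, against a median of 3503.5 over all genes. All 4 members deviated further than the median of their length class, and Insr, at 9355 nucleotides, deviated by -0.20. The part of length, depth and the conflicting label in these values was not tested.

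**Figure D3:**
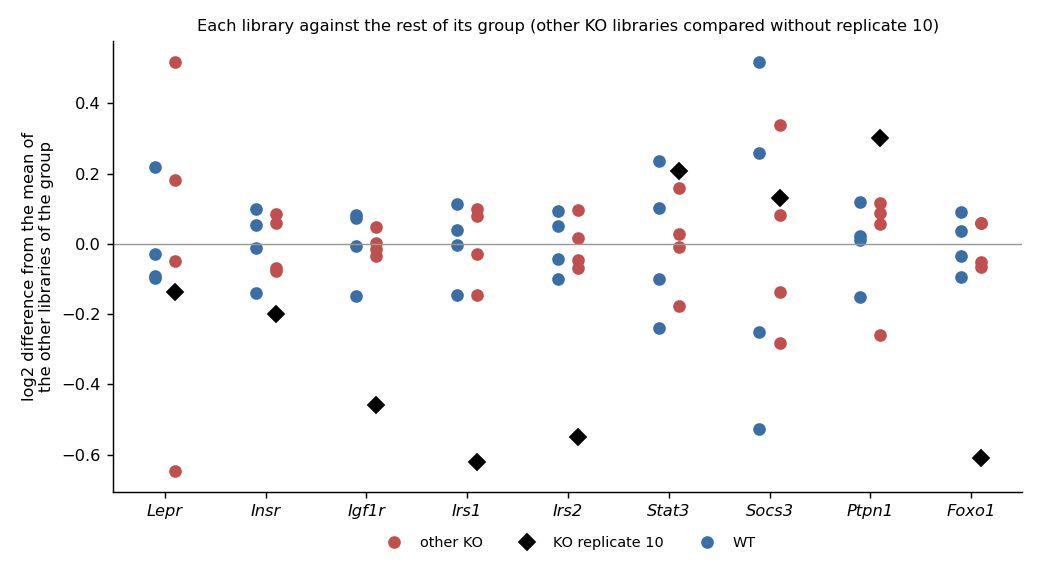
Each library's log2 difference from the mean of the other libraries of its group (y axis), for the 9 genes (x axis), with the KO libraries compared among themselves without replicate 10. Replicate 10 (black diamonds) lies at -0.46 to -0.62 for Igf1r, Irs1, Irs2 and Foxo1, outside the points of all other libraries, beyond them by less for Insr and Ptpn1, and within them for Lepr, Stat3 and Socs3.

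Among the members, levels per length differed far more than groups did. In WT, as CPM per kilobase of the longest annotated transcript, Irs2 was highest at 25 ± 1.14 (SD, n = 4), followed by Stat3 at 15.7 ± 1.72, Igf1r at 15.3 ± 0.833 and Insr at 14.2 ± 0.761. The WT ranges of Stat3 and Igf1r overlapped, as did those of Igf1r and Insr, although Igf1r was above Insr in each of the 4 WT libraries. Ptpn1 at 7.95 ± 0.459 and Irs1 at 7.74 ± 0.433 overlapped as well, and Foxo1 stood alone at 5.9 ± 0.247. The leptin receptor gene and its feedback inhibitor were the lowest, Lepr at 2.2 ± 0.178 and Socs3 at 1.71 ± 0.426 CPM per kilobase, with overlapping ranges. Of the 2 adaptors, Irs2 was above Irs1 in each of the 9 libraries. With the union of all exons as length, 5 of the 9 kept their place, and Stat3 and Igf1r, and Ptpn1 and Irs1, changed places. No member shared a stretch of 50 bases with another member, so related members, such as Insr and Igf1r, are told apart over reads of that length.

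Ratios within a library do not depend on how libraries were scaled, and 4 pairs were compared. The log2 ratio of Insr to Igf1r, the 2 receptors of one family, was -0.34, -0.39, -0.22, -0.22 and -0.03 in KO and -0.46, -0.31, -0.39 and -0.41 in WT. The means differed by 0.15 (exact permutation p = 0.0952, adjusted over the 4 ratios 0.381), and by 0.10 without replicate 10 (exact permutation p = 0.171). Of the 4 ratios it had the smallest p, and KO and WT overlapped. The ratio of Irs2 to Irs1 differed by -0.03 (exact permutation p = 0.619), of Socs3 to Stat3 by -0.17 (exact permutation p = 0.222) and of Ptpn1 to Lepr by -0.13 (exact permutation p = 0.667), and without replicate 10 by -0.04, -0.15 and -0.22.

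Variation shared between members was examined across libraries as deviations from the group means, a comparison added after the data were seen. Of 36 pairs, none had an adjusted permutation p below 0.05, either in the 8 libraries without replicate 10 (smallest 0.25) or in all 9 (smallest 0.179), and 3 and 7 pairs had an unadjusted one below 0.05. The sign of 12 pairs changed between the 8 and the 9. Stat3 and Foxo1 had Pearson's r = 0.89 over the 8 libraries (Spearman's rho 0.857, permutation p = 0.0139 and 0.0208, adjusted 0.25 and 0.312, and r = 0.77 without the 2 farthest) and r = -0.28 over 9. Igf1r and Irs2 had r = 0.77 over 8 (rho 0.81, permutation p = 0.0434 and 0.026, adjusted 0.375 and 0.312, and r = 0.67 without the 2 farthest) and r = 0.98 over 9. The relation of Stat3 with Foxo1 thus rested on leaving replicate 10 out, whereas that of Igf1r with Irs2 had 1 sign in both. Replicate 10 was low for both Igf1r and Irs2. Over 9 libraries their r was 0.82 without the 2 farthest, but the group means still included replicate 10. That value therefore does not show the relation without this library. Neither pair passed the adjustment. Stat3 and Socs3, a factor and its described target, had r = 0.75 over 8 (rho 0.714, permutation p = 0.108 and 0.122, adjusted 0.426 and 0.514, and r = 0.77 without the 2 farthest) and r = 0.72 over 9. Other pairs were negative. Irs1 and Socs3 had r = -0.83 over 8 (rho -0.738, permutation p = 0.0139 and 0.0556, adjusted 0.25 and 0.4, and r = -0.57 without the 2 farthest) and r = -0.43 over 9. Irs1 and Stat3 had r = -0.75 over 8 (rho -0.833, permutation p = 0.0521 and 0.0208, adjusted 0.375 and 0.312, and r = -0.78 without the 2 farthest) and r = -0.68 over 9.

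The genes whose library-to-library pattern was most like that of Lepr and of Socs3 were sought among the genes that averaged 5 CPM or more (12044 for Lepr), over the 8 libraries without replicate 10, as a description. For Lepr these were Lrrc57, a leucine-rich repeat protein (r = 0.99), Myh11, the myosin heavy chain of smooth muscle (r = 0.978), and Eif2b3, a subunit of a translation initiation factor (r = 0.977). For Socs3 they were Adcyap1, the neuropeptide PACAP (r = 0.994), Coch, cochlin (r = 0.98), and Scg2, a secretory granule protein (r = 0.975). Over all 9 libraries r stayed at 0.982 for Lrrc57 and 0.977 for Adcyap1, and was 0.667 for Eif2b3 and 0.601 for Scg2. Only Lrrc57 and Adcyap1 were among the 3 most alike in both sets.

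Myh11, picked above for its likeness to Lepr among 12044 genes, varied at a much larger amplitude. It was 21.4, 17.8, 6.96, 26.9 and 20.4 CPM in KO and 11.4, 8.19, 7.9 and 7.44 CPM in WT. Its highest and lowest value were in the same libraries as for Lepr, KO replicates 8 and 6. A gene picked for likeness would share these, so this adds nothing to the r above. The 7 markers of meninges and fibroblasts all had values and summed to 125, 150.5, 77.8, 186 and 94.8 CPM in KO and 93.7, 76.7, 124 and 84.3 CPM in WT. They too were highest in KO replicate 8, and among KO lowest in replicate 6. The 10 endothelial markers, all with values, summed to 248.5 to 281 CPM in KO libraries against 230 to 248.6 CPM in WT, and 8 tanycyte markers to 139 to 199.8 against 152 to 174.6 CPM. Lepr is described in meningeal and vascular cells and in tanycytes as well as in neurons, and the part of these cells in its values was not tested. Of 10 choroid plexus markers 4 had values, with sums of 59 to 90.2 CPM in KO libraries against 74.5 to 96.2 CPM in WT, and Ttr, Folr1 and Kcne2 had none here.

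**Figure D4:**
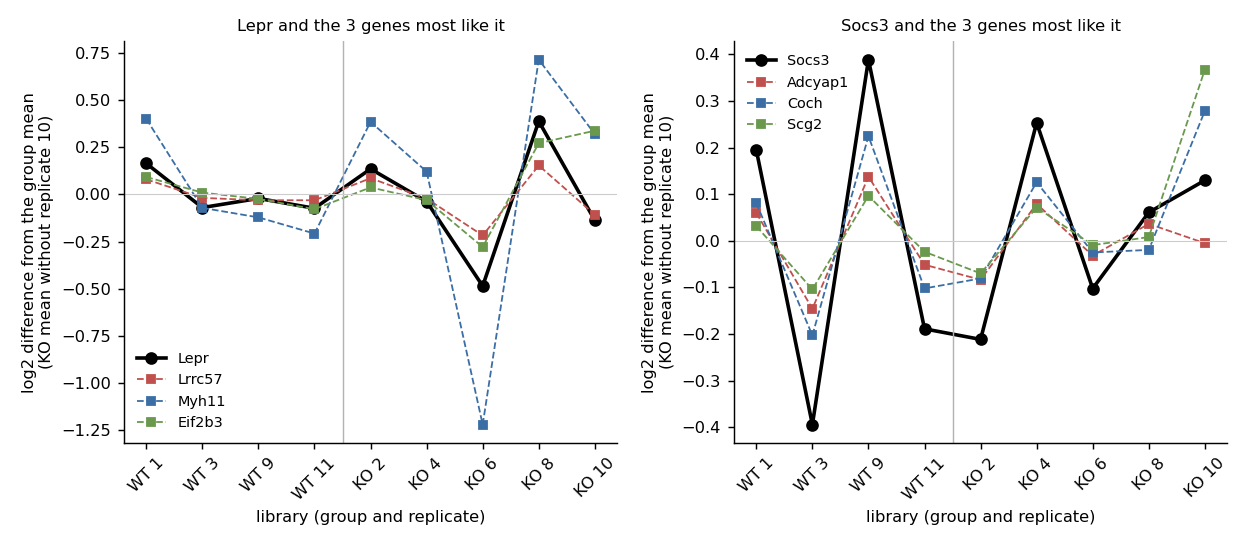
Log2 difference from the group mean (y axes) in each library (x axes, WT then KO) for Lepr and Socs3 (black) and the 3 genes most like each. Lepr and Myh11 are both highest in KO replicate 8 and lowest in KO replicate 6, and Adcyap1 follows Socs3 at a smaller amplitude, while Scg2 and Coch are apart from it in KO replicate 10. Lines only join the values of 1 gene.

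The rest of the pathway was read from 8 lists of 128 genes, of which 118 had values. None of the 118 passed an adjusted p of 0.05 in limma, with or without replicate 10, and 5 had an unadjusted p below 0.05 (13 without replicate 10), beside 6.5% of all genes (10.5% without replicate 10). By mean, 52 were higher and 66 lower in KO, with a median log2 difference of -0.01 beside 0.00089 over all genes. Of all 14351 genes, 7229 were higher and 7122 lower, which is the split to set beside each list below. Genes of a list are not independent. Without replicate 10, 57 were higher (7082 of all genes), and the median was -0.0047 beside -0.0020 over all genes. The hormone genes Lep, Ins1 and Ins2 had no value here.

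On the leptin side, 8 of 15 genes of the receptor complex and JAK-STAT arm were higher and 7 lower by mean, with a median of 0.01, whereas without replicate 10 12 of the 15 were higher, with a median of 0.03, and none passed in either. Jak3, a kinase mainly of blood cells, was at 9.48 ± 1.41 CPM in KO and 7.18 ± 0.978 CPM in WT, a log2 difference of 0.39 (limma adjusted p = 0.669) that was 0.46 without replicate 10 (limma adjusted p = 0.249). Lifr, the leukaemia inhibitory factor receptor, was at -0.10 (-0.09 without replicate 10). Jak2, the kinase bound to the leptin receptor, was at 0.07 (0.02 without replicate 10), with 59.3 to 74 CPM in KO libraries against 59 to 64.7 CPM in WT. Of 22 brakes on the receptors, 12 were higher and 10 lower, with a median of 0.0077 (13 higher and a median of 0.01 without replicate 10). The smallest p in each direction belonged to Socs2 at 0.15 and Socs4 at -0.12, which were at 0.16 and -0.07 without replicate 10.

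On the insulin side, 9 of 11 ligands, other receptors and binding proteins had a higher mean in KO, with a median of 0.11 (again 9, with a median of 0.21, without replicate 10). Igfbp2, a binding protein of the insulin-like growth factors, had the smallest p of the list, with 14.6, 29.9, 7.33, 31.9 and 12 CPM in KO and 7.6, 7.15, 18.4 and 6.75 CPM in WT. Its log2 difference was 0.86 (SE 0.43, limma adjusted p = 0.788) and 0.97 without replicate 10 (limma adjusted p = 0.385). Within each group its highest values, in KO replicates 8 and 4 and WT replicate 9, fell where the meningeal marker sum above was highest. Across groups the match was looser, since KO replicate 2 had a marker sum of 125 CPM beside 124 CPM in WT replicate 9, and less Igfbp2. The part of those cells in this list was not tested. Ide, the insulin-degrading enzyme, was at -0.08 (-0.06 without replicate 10).

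Among adaptors and PI3-kinase subunits 2 of 14 were higher and 12 lower by mean, with a median of -0.04 (5 higher and a median of -0.02 without replicate 10), and none passed. Pik3r2, a regulatory subunit of PI3-kinase, was at 0.17 and Gab1, a docking protein, at -0.11 (0.15 and -0.12 without replicate 10). In the AKT and mTOR arm 7 of 18 were higher and 11 lower, with a median of -0.02 (8 higher and a median of -0.01 without replicate 10). Rptor, the scaffold of mTOR complex 1, was at 0.14 and Deptor, an mTOR inhibitor, at -0.18 (0.14 and -0.09 without replicate 10). The ERK arm had 3 of 9 higher and 6 lower, with a median of -0.09, and without replicate 10 it had 1 of 9 higher and a median of -0.04. The kinase gene Map2k2 was at 0.12 and the GTPase gene Nras at -0.16, and without replicate 10 at 0.04 and -0.09.

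Downstream, 2 of 8 FOXO relatives and regulators were higher and 6 lower (3 higher without replicate 10), with Foxo4 at 0.18 and Foxo3 at -0.11 (0.21 and -0.08 without replicate 10). Of 21 genes described as targets of FOXO1 or STAT3, 9 were higher and 12 lower, with a median of -0.01 (6 higher and a median of -0.05 without replicate 10). Gpr17, described as a FOXO1 target in Agrp neurons and abundant in oligodendrocyte precursors, had the smallest adjusted p of the 118 genes. It was measured at 55.1, 44.3, 44.9, 44.9 and 41.8 CPM in KO and 66.1, 57.2, 52.3 and 54.4 CPM in WT. The log2 difference was -0.32 (SE 0.10, limma adjusted p = 0.506, exact permutation p = 0.0476) and -0.28 without replicate 10 (limma adjusted p = 0.22), and KO replicate 2 overlapped the WT range. Fbxo32, a ubiquitin ligase induced by FOXO factors in muscle, was at 0.22 (limma adjusted p = 0.731), and at 0.19 without replicate 10 (limma adjusted p = 0.467).

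**Figure D5:**
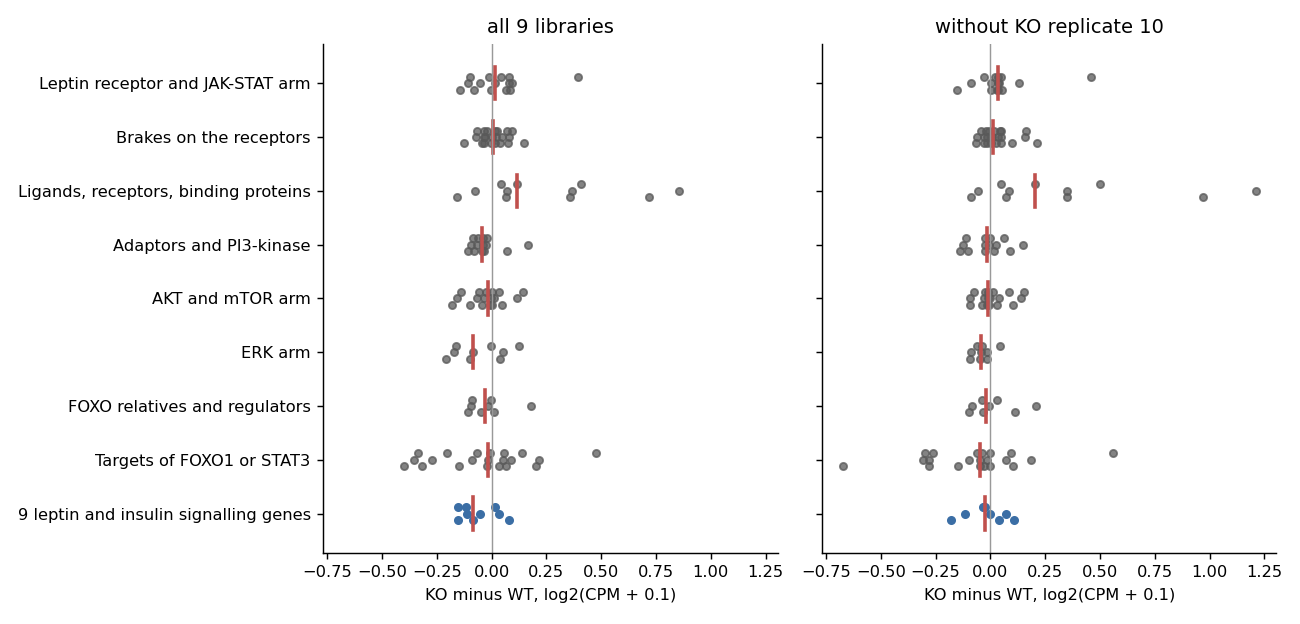
KO minus WT difference on the log2(CPM + 0.1) scale (x axes) for each gene of 8 pathway lists (grey) and for the 9 members (blue), with the median of each list in red, with all 9 libraries (left) and without KO replicate 10 (right). Most genes lie close to 0, and the widest spread to the right is in ligands, receptors and binding proteins, where Igfbp2 is at 0.86 in the left panel and no gene passed the test.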

How the data were processed

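Hypothalamic RNA of 9 libraries (5 KO, 4 WT) was prepared by the authors from samples with an RNA integrity number above 8. Per the study's methods and the submitters' processing notes, reads were checked with FastQC 0.11.8, trimmed with Trimmomatic 0.38, aligned to GRCm38.p6 with STAR 2.5.1a and counted with RSEM 1.3.0. The authors kept genes with at least 1 CPM in at least 5 samples and normalized them with edgeR (TMM), so genes below that filter have no value here. The deposited values are such normalized CPM, used here as a signal on a linear scale. They are not counts, so limma with a trend took the place of the authors' limma-voom. Depth was estimated from the steps between values below 2.5 CPM (81.3% to 86.5% of them whole within 0.03 reads); since the rest were not whole, reads estimated from these steps entered only an alternative, voom, and no main test. One column matching no sample was not used.

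Values were analysed as log2(CPM + 0.1), which understates differences of low genes. KO and WT were compared with limma 3.58.1 (R 4.3.3) over all 14351 genes with Benjamini-Hochberg adjustment, and each member and ratio with exact two-sided permutation tests (scipy 1.17.1). The fit was checked on data with known changes. Transcript lengths, positions and shared 50-base stretches came from GENCODE annotation of GRCm38. The named genes were the 9 members, Clic1, the gene with the smallest p in each direction of each pathway list and the 3 genes most like Lepr and Socs3. Jak2 and the genes in the closing observations were chosen after their values were seen. The members, lists and markers were chosen with earlier results of these data known. Alternatives covered the pseudocount, filter, scaling, trend, voom, sample weights, each library left out, and replicate 10 left out or grouped as WT.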

Additional observations from a re-analysis of the deposited data

Results flagged for a closer look

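Values of the named genes in KO and in WT formed 72 groups. Chance gives about 3.6 flagged groups among 72, but that number does not hold for genes picked by their values, as many here were. By Dixon's ratio, 8 groups had a highest or lowest library far from the others. Of these, 3 were KO replicate 10, with 124.5 CPM of Igf1r (the other KO libraries 168 to 176), 108 CPM of Irs2 (152 to 166) and 32.6 CPM of Foxo1 (48.2 to 51.4). In other libraries Gab1 was 61.5 CPM in WT replicate 1 (the other WT libraries 64.2 to 64.5), Rptor was 138 CPM in WT replicate 3 (128 to 129), and Lrrc57 was 12.2 CPM in WT replicate 1 (11.3 to 11.4). Gpr17 was 55.1 CPM in KO replicate 2 (41.8 to 44.9), and Igfbp2 was 18.4 CPM in WT replicate 9 (6.75 to 7.6).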

How the results depend on the processing

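In 205 recalculations for the members and ratios, 188 kept the direction, 17 turned it and none passed the threshold; the smallest adjusted limma p of a member under any setting was 0.591. With replicate 10 as WT the log2 differences turned to 0.0697 for Igf1r, 0.15 for Irs1, 0.11 for Irs2, 0.095 for Foxo1 and -0.0624 for Stat3, and with sample weights to 0.0042 for Irs1 and -0.0372 for Stat3. Leaving out 1 library at a time gave -0.0246 to 0.19 for Lepr, -0.0031 to 0.0719 for Insr, -0.14 to 0.0379 for Irs1, -0.0450 to 0.0738 for Stat3, -0.29 to -0.0243 for Socs3, -0.11 to 0.0097 for Ptpn1, -0.0526 to 0.0048 for the ratio of Irs2 to Irs1 and -0.24 to 0.0344 for that of Ptpn1 to Lepr. All genes past the threshold numbered 41, 27 among genes averaging 5 CPM or more, 135 with sample weights, 5 with replicate 10 as WT, and 18 (without WT replicate 1) to 87 (without KO replicate 10) leaving out 1 library; members and pathway genes stayed at 0 in each. The difference in Clic1 was -1.51 with replicate 10 as WT (limma adjusted p = 0.501), and it missed the threshold in 4 of 17 alternatives, the others being without WT replicates 1, 3 and 9 (limma adjusted p = 0.0893, 0.0826 and 0.0702). The order of levels kept 5 of 9 places with union exon lengths, and 2 of the 6 genes most like Lepr and Socs3 remained with all 9 libraries. The cause of these shifts was not tested. Socs3 had the fewest estimated reads, 19 to 83 a library. No paired analysis was made, since KO and WT share no replicate number and the litter of each mouse was not given in the sources used here.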

Other observations

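KO replicate 10 also stood apart in other genes of the pathway, named here after their values were seen. Igf2, a growth factor made by the meninges and choroid plexus in adult brain, was 130, 202, 45.1 and 233 CPM in KO replicates 2, 4, 6 and 8 and 23.2 CPM in replicate 10. WT replicates 1, 3, 9 and 11 had 37.6, 46.6, 117 and 46.7 CPM. The log2 difference of Igf2 between KO and WT was 0.72 with replicate 10 and 1.21 without it (limma adjusted p = 0.865 and 0.284). Gsk3a, a kinase inhibited by AKT, was 179 to 197 CPM in the other KO libraries, 170.5 to 179.7 CPM in WT and 93.9 CPM in replicate 10. Neuropeptide genes of feeding and energy balance differed among themselves. Agrp was at 3.76 CPM in replicate 10 beside 0.549 to 2.03 CPM in the other KO libraries, Pomc at 52.3 beside 16.7 to 30.3 CPM and Cartpt at 87.2 beside 52.2 to 65.8 CPM. Npy, at 19.1 CPM, lay inside the range of the other KO libraries, 17.4 to 24.6 CPM, and Trh, at 30.4 CPM, was below theirs, 33.8 to 49.3 CPM. The WT ranges were 1.14 to 2.8 CPM for Agrp, 21.3 to 31.4 for Pomc, 40.7 to 70.8 for Cartpt, 19.4 to 32.5 for Npy and 40.3 to 49.04 for Trh. Of the 118 pathway genes 59.3% were lower in replicate 10 than the mean of the other KO libraries, beside 49.7% of all genes. The genes were not matched for transcript length, with which the deviations of replicate 10 went, and the part of length was not tested.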
